A study of Mus musculus with 6 samples.

Results

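The genes described here were those for matrix metalloproteinases (MMPs), tissue inhibitors of metalloproteinases (TIMPs), and the ADAM and ADAMTS proteases. They were taken from the deposited expression table by symbol, as every gene whose name starts with Mmp, Timp, Adam or Adamts followed directly by a digit. The rule found 67 of the 17866 genes in the table. Of these, 23 were MMPs, 4 were TIMPs, 23 were ADAMs and 17 were ADAMTS genes. The samples were 6 RNA-seq libraries of the separated corneal epithelial layer of C57BL/6 mice at 6 months of age. The study set 3 wild-type libraries (WT) against 3 libraries labelled Rela-/- (KO), each from an independent biological sample. In the study's methods the KO mice were Krt14-Cre; Rela f/f, in which a floxed allele of Rela, the gene for the p65 subunit of NF-κB, is deleted in keratin 14-expressing cells. This driver is active not only in corneal epithelium and its stem cells but also in conjunctiva, skin and other stratified epithelia, and the deletion is present from development on.

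MMPs are zinc-dependent proteases that cut collagens, laminins and other matrix proteins, and many are secreted as inactive proenzymes. ADAMs are mostly membrane-bound and release the outer part of cell-surface proteins such as growth factors and receptors, and ADAMTS proteases are secreted and cut proteoglycans, procollagens and other matrix proteins. TIMPs bind the active sites of these enzymes. In the cornea, MMPs are best known for the turnover of the epithelial basement membrane and of stromal collagen during wound repair. The deposited protein domain annotation fitted the names. The MMP catalytic domain was annotated in 23 of 23 MMP genes, and a hemopexin domain in 21 of 23, with Mmp7 and Mmp23 lacking it. The ADAM-type catalytic domain was annotated in 23 of 23 ADAM and 17 of 17 ADAMTS genes. A disintegrin domain was annotated in 23 of 23 ADAM genes and a thrombospondin repeat in 17 of 17 ADAMTS genes.

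Libraries held between 20158404 and 20880347 estimated reads, so depth was nearly equal. Rela itself had WT counts of 1871, 1844 and 1855 and KO counts of 318, 223 and 313, which is 16.5% of the WT level, so the labels were borne out. Genotype separated the libraries on the first principal component, which held 90.3% of the variance. Markers of corneal epithelium such as Krt12 and Pax6 were present in every library, but the summed normalized count of 6 such markers was between 84860 and 88380 CPM in WT and between 20910 and 23350 CPM in KO. CPM is the count per 1000000 reads after TMM scaling. The 5 epidermal markers summed to between 28.5 and 39.5 CPM in WT and between 10150 and 22720 CPM in KO. Of these, 4 were higher in KO, while Ivl went the other way, with means of 16.25 CPM in WT and 10.75 CPM in KO. These are bulk samples, in which a change in the number of cells of a type and a change in RNA per cell cannot be told apart.

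Most of the protease and inhibitor genes that could be measured differed between the genotypes, with the most abundant MMP and TIMP genes lower and several genes near the detection limit in WT higher. Of the 67 genes, 31 had enough counts to be tested. A gene was called at an adjusted p of 0.05 or less in edgeR's quasi-likelihood test, with Benjamini-Hochberg adjustment over all 13305 genes tested. By this rule 14 of the 31 were higher in KO, 10 were lower and 7 were not called. Among all genes tested, 62.0% were called, 31.8% higher and 30.2% lower, so differences between these libraries were the common case. The study itself asked for a change of 2-fold or more and an adjusted p no higher than 0.001, and 8 of the genes were higher and 4 lower by that stricter rule. Of all genes tested 19.8% met it, 11.6% higher and 8.24% lower. Values of the 3 KO libraries did not overlap those of the 3 WT libraries for 22 of the 31 genes, 14 with KO above and 8 with KO below. Among all genes tested this was so for 68.6%, with 34.7% above and 33.9% below. The median log2 fold change of the 31 was 0.18, against 0.01 for all genes, and the median absolute log2 fold change was 1.17, against 0.53.

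Part of this pattern was set by the filter on low counts. Of the 31 genes, 18 had enough counts in both genotypes, and 4 of these were higher and 8 lower in KO, where 28.0% and 32.0% of all such genes were called in each direction. A further 10 passed only through their KO counts (Adam19, Adamts1, Adamts15, Mmp2, Mmp9, Mmp10, Mmp11, Mmp12, Mmp13 and Timp1). All 10 were called higher, as were 89.5% of all genes that passed in that way, so their direction came with the filter and is no finding on its own. Another 3 (Adam4, Adam22 and Mmp23) passed only through WT. The remaining 36 genes were not tested. In 17 of them no library had more than 3 counts, and the highest count of any untested gene was 38, for Adam12 in KO replicate 2.

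**Figure D1:**
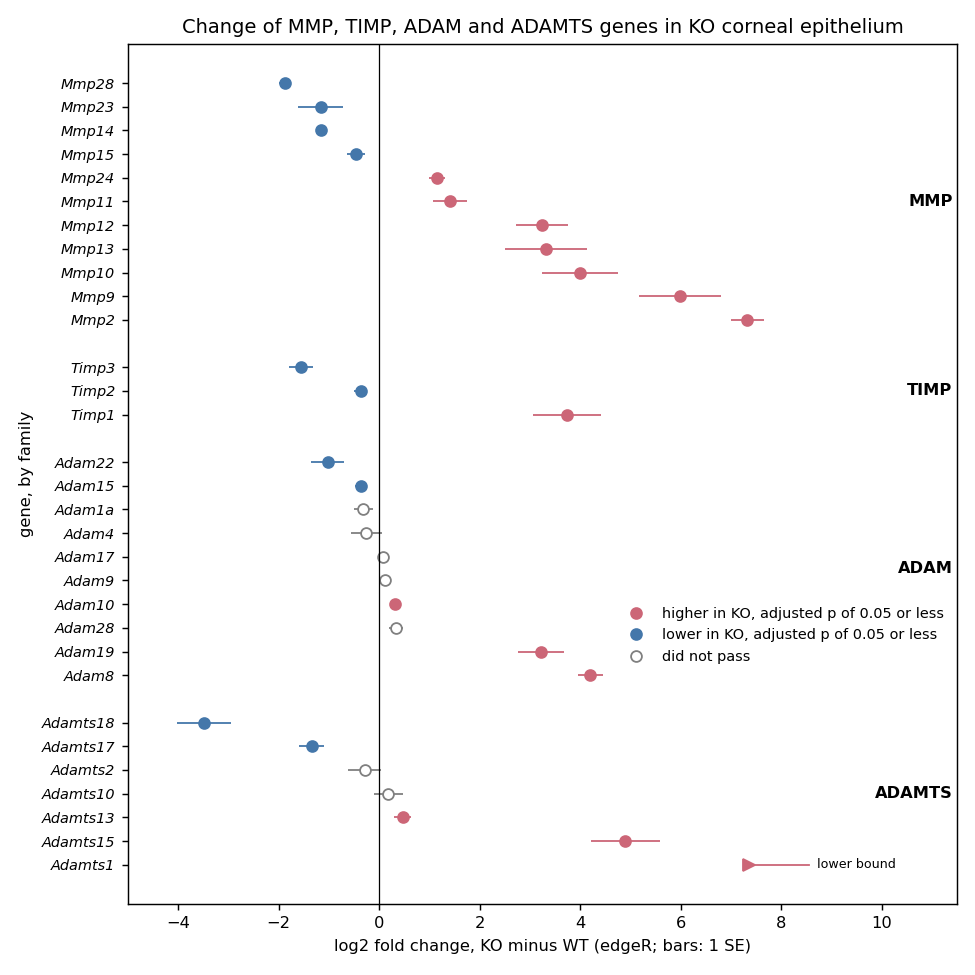
Log2 fold change of KO against WT for the 31 tested genes, by family, with 1 SE from edgeR as horizontal bars (3 libraries per genotype). Filled points passed an adjusted p of 0.05, with red higher and blue lower in KO, and open points did not; the arrow for Adamts1, which had 0 counts in WT, marks a lower bound. The 11 tested MMPs lie on both sides of 0 and all were called, as were 5 of the 10 tested ADAMs and 62.0% of all genes tested. Mmp2, Mmp9, Mmp10, Mmp11, Mmp12 and Mmp13 passed the filter only through KO and Mmp23 only through WT. Of all genes that passed in these ways, 89.5% and 71.3% were called.

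The MMPs expressed most in WT cornea were membrane-bound or epithelial enzymes, and their levels fell in KO. On the TPM scale, which is per length and so allows genes to be compared, Mmp14 alone made up 69.3% of the summed MMP level in WT, and Mmp14, Mmp28 and Mmp15 together made up 97.2%. Mmp14 (Entrez gene 17387, GRCm38 chr14:54431598-54442456) encodes MT1-MMP, a membrane-anchored collagenase that also activates pro-MMP2. Its counts were 4982, 5232 and 4504 in the WT libraries and 2174, 2011 and 1923 in the KO libraries. All KO libraries lay below all WT libraries. The normalized count was 228 ± 15.1 CPM (SD, n = 3) in WT and 102 ± 7.24 CPM (n = 3) in KO, a log2 fold change of -1.16 (adjusted p = 2.47e-05 in edgeR, SE 0.0966). Mmp28, which encodes epilysin, an MMP of intact epithelia, had WT counts of 1035, 961 and 778 and KO counts of 236, 234 and 227. Here the groups were far apart and the KO libraries differed by only a few counts. The change on the log2 scale was -1.88 (adjusted p = 6.35e-06, SE 0.121), so 27.2% of the WT level remained.

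Of the other membrane-bound MMPs tested, Mmp15 and Mmp23 were lower in KO and Mmp24 was higher. Mmp15, which encodes MT2-MMP, had WT counts of 1001, 950 and 1369 and KO counts of 891, 660 and 680. WT replicate 3 stood high and KO replicate 1 overlapped the other WT libraries after scaling. Its log2 fold change of -0.47 (SE 0.179) just passed in edgeR (adjusted p = 0.0490), and without WT replicate 3 it was -0.26 with an adjusted p of 0.199. Leaving out WT replicate 1, KO replicate 2 or KO replicate 3 also ended that call, with adjusted p-values of 0.0588, 0.138 and 0.138. Mmp24, which encodes MT5-MMP, was the only one of the 3 tested membrane-type MMPs called higher, with WT counts of 76, 67 and 68 and KO counts of 147, 151 and 135. Its libraries were tight within each genotype and apart between them, with a log2 fold change of 1.15 (adjusted p = 0.000312, SE 0.155). Mmp23, a small membrane-anchored enzyme, had WT counts of 26, 12 and 35 and KO counts of 8, 10 and 12. It came to a log2 fold change of -1.17 (adjusted p = 0.0466 in edgeR), but leaving out any library other than WT replicate 2 ended the call, with adjusted p-values between 0.0732 and 0.188.

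Both gelatinases, which cut the type IV collagen of basement membranes, were close to absent in WT and present in KO. Mmp2 (Entrez gene 17390, GRCm38 chr8:92826268-92853421), encoding gelatinase A, had WT counts of 3, 1 and 2 and KO counts of 391, 294 and 259. All KO libraries stood far above WT. The ratio of the summed counts, scaled for library size, was 170 with a 95% counting interval from 77.7 to 464, and the fitted log2 fold change was 7.32 (adjusted p = 1.32e-06 in edgeR, SE 0.331). Mmp9, encoding gelatinase B, had WT counts of 0, 0 and 1 and KO counts of 14, 40 and 27. The ratio was 87.4 with a counting interval from 15.2 to 3493. The fitted log2 fold change of Mmp9 was 5.98 (adjusted p = 0.000337). Without WT replicate 3, the only WT library with a read, it was still called (adjusted p = 0.00231), but no fold is given because WT then had 0 counts. On the per-length scale, Mmp2 reached 8.95 TPM in KO and became the third MMP in level, behind Mmp14 at 46.6 TPM and Mmp15 at 14.98 TPM, while Mmp9 stayed at 0.743 TPM. Such counting intervals cover counting error only, since PCR copies were not told apart.

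Secreted collagenases and stromelysins degrade fibrillar collagen, elastin and other matrix proteins in wounds. Of the 9 genes of these classes, matrilysin included, Mmp13, Mmp10, Mmp12 and Mmp11 were tested, all through their KO counts alone, and were called higher, while Mmp1a and Mmp1b had at most 2 counts. Mmp13, encoding collagenase 3, had WT counts of 12, 21 and 1 and KO counts of 31, 195 and 91. KO replicate 2 was the highest by far and KO replicate 1 the lowest, only a little above WT replicate 2. On the log2 scale the difference was 3.32 (adjusted p = 0.00724 in edgeR, SE 0.812). It was 2.52 (adjusted p = 0.0256) without KO replicate 2 and 4.12 (adjusted p = 0.00717) without WT replicate 2. Mmp10, encoding stromelysin 2, had WT counts of 4, 6 and 1 and KO counts of 17.5, 98.1 and 52.4. The order of the KO libraries was again replicate 2, 3 and 1. Its log2 fold change was 3.99 (adjusted p = 0.00196, SE 0.755), and 3.30 (adjusted p = 0.00524) without KO replicate 2.

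Mmp12, encoding macrophage elastase, had WT counts of 11, 2 and 3 and KO counts of 37, 63 and 43. WT replicate 1 held most of the WT reads, and no WT library reached the KO range. The log2 fold change was 3.24 (adjusted p = 0.000766 in edgeR, SE 0.516), and 4.29 (adjusted p = 0.000469) without WT replicate 1. Mmp11, encoding stromelysin 3, which unlike most MMPs is activated inside the cell, had WT counts of 6, 10 and 7 and KO counts of 19, 16 and 22. Those groups did not overlap, and its log2 fold change was 1.40 (adjusted p = 0.00733, SE 0.344). Several related genes had too few counts for the test. Mmp3, encoding stromelysin 1, had at most 1 count in WT and 6.53, 16.0 and 20.7 in KO, a ratio of 47.5 with a counting interval from 8.09 to 1917. Mmp7, encoding matrilysin, had WT counts of 0, 0 and 3 and KO counts of 14, 8 and 3, a ratio of 8.99 (interval 2.74 to 46.5). The neutrophil collagenase gene Mmp8 had 0 counts in every WT library and 4, 3 and 1 in KO. The KO counts lay next to, at or under the floor of 3 counts, so no fold is given.

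**Figure D2:**
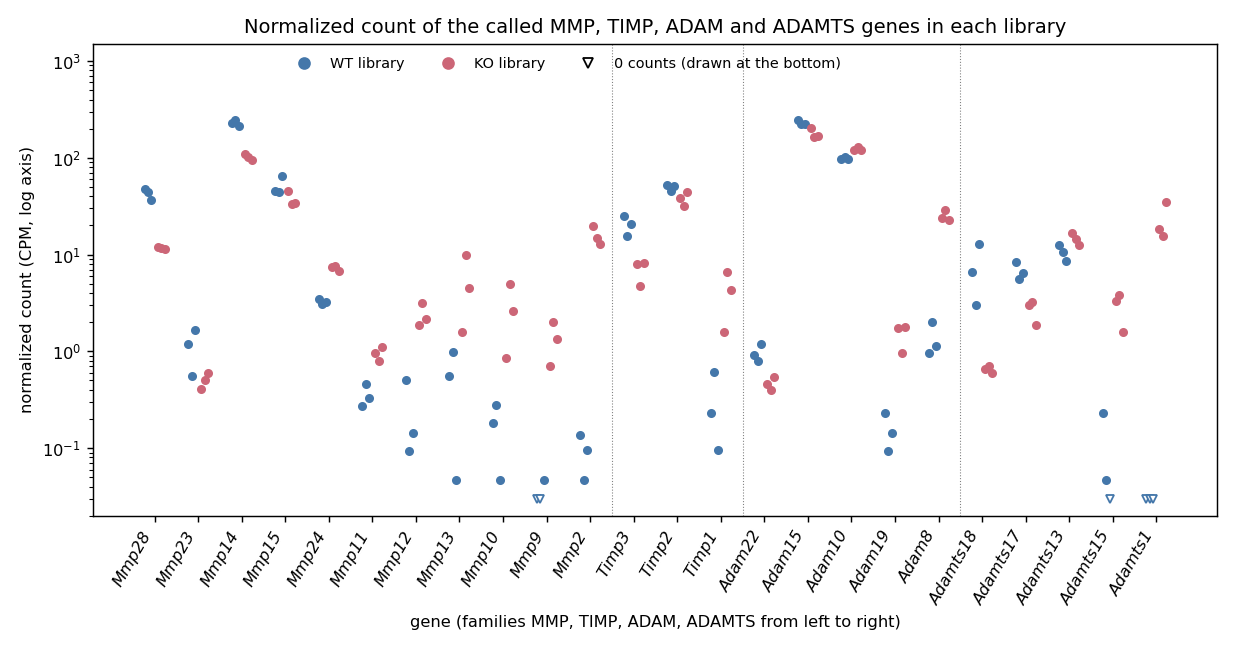
Normalized count (CPM, log axis) of the 24 called genes in each library, with blue points for WT and red points for KO and replicates 1 to 3 from left to right within a genotype. Open triangles mark libraries with 0 counts, which a log axis cannot hold. The abundant genes such as Mmp14, Adam15 and Adam10 show narrow groups, whereas Mmp13, Mmp10, Mmp9 and Timp1 spread widely within KO.

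Of the MMP genes, 10 lie side by side in a cluster on chromosome 9, where most of the secreted collagenases and stromelysins are encoded. In GRCm38 the cluster runs from 7272514 to 7707119, over 435 kb, in the order Mmp13, Mmp12, Mmp1b, Mmp3, Mmp1a, Mmp10, Mmp8, Mmp27, Mmp20 and Mmp7, with no other gene of the table among them. Only Mmp13, Mmp12 and Mmp10 had enough counts for the test, each through its KO counts alone, and like 89.5% of all such genes they were called higher. Counts of Mmp3, Mmp7 and Mmp8 were too low for the test, and were given above. Mmp1a, Mmp1b and Mmp27 stayed between 0 and 4 counts in every library. Mmp20, the tooth enamel protease enamelysin, had 2, 2 and 4 counts in WT and 0 in each KO library, which is at or next to the detection floor in both genotypes. For the other 7 neighbours the depth did not allow a test.

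**Figure D3:**
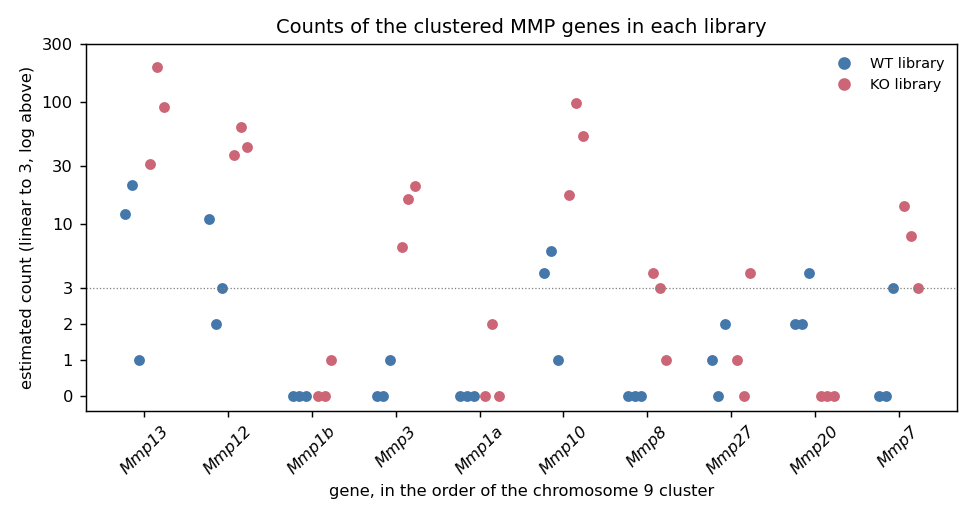
Estimated counts of the 10 clustered MMP genes in each library, in their order on chromosome 9, on an axis that is linear up to 3 counts (dotted line) and logarithmic above. Blue points are WT and red points KO, replicates 1 to 3 from left to right. Mmp13, Mmp12, Mmp3 and Mmp10 separate the genotypes, whereas Mmp1a, Mmp1b, Mmp27 and Mmp20 stay at or near 0.

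Genes of this cluster are textbook targets of AP-1, the transcription factor formed by Jun and Fos proteins, so their promoters were searched for its site. The 100 bases before the annotated start are shown for 6 cluster genes. These are the cluster genes whose normalized count was higher in every KO library than in any WT library. For Mmp7 and Mmp8 this rests on few reads, and Mmp7 had 3 counts in both WT replicate 3 and KO replicate 3. As a contrast, Mmp14 and Mmp28 are shown, which were lower in KO. The letters are from RefSeq on GRCm38.p6, read along the strand of the gene. Capitals mark matches to TGANTCA, the AP-1 consensus written here with any base in the middle. These cluster genes lie on the plus strand of chromosome 9, at chr9:7272414-7272513 for Mmp13, chr9:7344297-7344396 and chr9:7347274-7347373 for the 2 annotated starts of Mmp12, chr9:7445722-7445821 for Mmp3, chr9:7502242-7502341 for Mmp10, chr9:7558329-7558428 for Mmp8 and chr9:7691990-7692089 for Mmp7 (the first of its 2 annotated starts). Mmp14 is at chr14:54431498-54431597 on the plus strand and Mmp28 at chr11:83463041-83463140 on the minus strand.
Mmp13: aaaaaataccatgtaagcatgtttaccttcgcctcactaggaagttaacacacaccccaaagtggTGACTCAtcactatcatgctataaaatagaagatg
Mmp12, first start: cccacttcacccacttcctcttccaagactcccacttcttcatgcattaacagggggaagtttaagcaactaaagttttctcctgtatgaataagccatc
Mmp12, second start: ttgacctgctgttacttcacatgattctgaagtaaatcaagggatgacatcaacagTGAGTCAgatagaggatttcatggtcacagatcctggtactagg
Mmp3: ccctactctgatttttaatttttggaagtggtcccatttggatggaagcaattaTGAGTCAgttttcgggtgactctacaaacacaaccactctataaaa
Mmp10: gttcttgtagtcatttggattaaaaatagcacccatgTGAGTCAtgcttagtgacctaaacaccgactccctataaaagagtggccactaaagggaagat
Mmp8: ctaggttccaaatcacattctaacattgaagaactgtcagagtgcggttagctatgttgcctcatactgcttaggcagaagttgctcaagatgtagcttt
Mmp7: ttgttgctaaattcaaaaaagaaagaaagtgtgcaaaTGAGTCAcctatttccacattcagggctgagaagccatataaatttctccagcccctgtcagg
Mmp14: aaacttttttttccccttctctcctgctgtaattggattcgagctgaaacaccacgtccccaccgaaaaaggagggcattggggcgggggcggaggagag
Mmp28: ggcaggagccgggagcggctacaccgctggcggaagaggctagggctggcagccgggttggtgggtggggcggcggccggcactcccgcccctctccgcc

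In the window from 250 bases before to 50 after the start, searched on both strands, TGANTCA occurred in 8 of the 10 cluster genes. The match was TGAATCA in Mmp20, and TGAGTCA or TGACTCA in the others. It occurred in 2 of the 33 other genes of these families with a window and in 8.97% of all genes with one. The match lay at base -35 in Mmp13, -44 in Mmp12, -46 in Mmp3, -63 in Mmp10 and -63 in Mmp7, counted from the start. The first start of Mmp12, which is the start in the deposited table, and the second start of Mmp7 had no match, nor did Mmp8. Both genes without it in any window, Mmp8 and Mmp27, were among those at the detection limit, but so were Mmp1a, Mmp1b and Mmp20, which had it. The κB consensus, the binding site of NF-κB, was found in 7 of the 48 windows of 43 genes, against 5.80% of all 32851 windows. It lay in 3 of 14 windows of genes called higher (Adam19, Adamts13 and 1 of the 2 starts of Mmp12) and in 0 of 11 windows of genes called lower. TGANTCA was likewise in 4 of the 14 (Adam19, Mmp10, Mmp12 and Mmp13) and in 0 of the 11. These 4 genes passed the filter only through KO, so their direction came with the filter. Mmp2, Mmp9 and Adamts15, also called higher, had no window. The split of matches between genes called higher and lower is thus no finding on its own. These are matches of letters and say nothing of binding.

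Of the inhibitors, Timp2 and Timp3 were lower in KO and Timp1 was higher. Timp2, whose product inhibits most MMPs and takes part in the activation of pro-MMP2 by MT1-MMP, had WT counts of 1134, 976 and 1079 and KO counts of 757, 629 and 897. No KO library reached the lowest WT library on the CPM scale, though KO replicate 3 came close. Its log2 fold change was -0.37 (adjusted p = 0.0382 in edgeR, SE 0.134), and without KO replicate 2 it was -0.25 with an adjusted p of 0.0938. Omitting WT replicate 1, WT replicate 3 or KO replicate 1 ended the call as well, with adjusted p-values of 0.113, 0.104 and 0.0759. Timp3, whose product binds to the matrix and also inhibits ADAM17 and several ADAMTS proteases, had WT counts of 552, 337 and 432 and KO counts of 157, 95.2 and 164. Here the groups were well apart, and the normalized count was 20.5 ± 4.80 CPM (SD, n = 3) in WT and 6.96 ± 1.91 CPM (n = 3) in KO. The change on the log2 scale was -1.56 (adjusted p = 0.000664, SE 0.241). Timp4 had a single read in the 6 libraries.

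Timp1 (Entrez gene 21857, GRCm38 chrX:20870166-20874737), a secreted inhibitor made in inflamed and healing tissue, had WT counts of 5, 13 and 2 and KO counts of 31, 132 and 87. KO replicate 2 was again highest and replicate 1 lowest. It came to a log2 fold change of 3.73 (adjusted p = 0.00153 in edgeR, SE 0.675), and 4.64 (adjusted p = 0.00147) without WT replicate 2. In summed TIMP TPM, Timp1 made up 1.34%, 4.31% and 0.639% in the WT libraries and 12.9%, 44.2% and 26.3% in the KO libraries, without overlap. The share of Timp2 was 71.6%, 75.6% and 75.9% in WT and 75.0%, 50.02% and 64.6% in KO, so that KO replicate 1 lay within the WT range. Reads of Timp1, Timp2 and Timp3 may be shared with Syn1, Cep295nl and Syn3, genes annotated over the same stretches, since the counting was not stated to use strand.

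**Figure D4:**
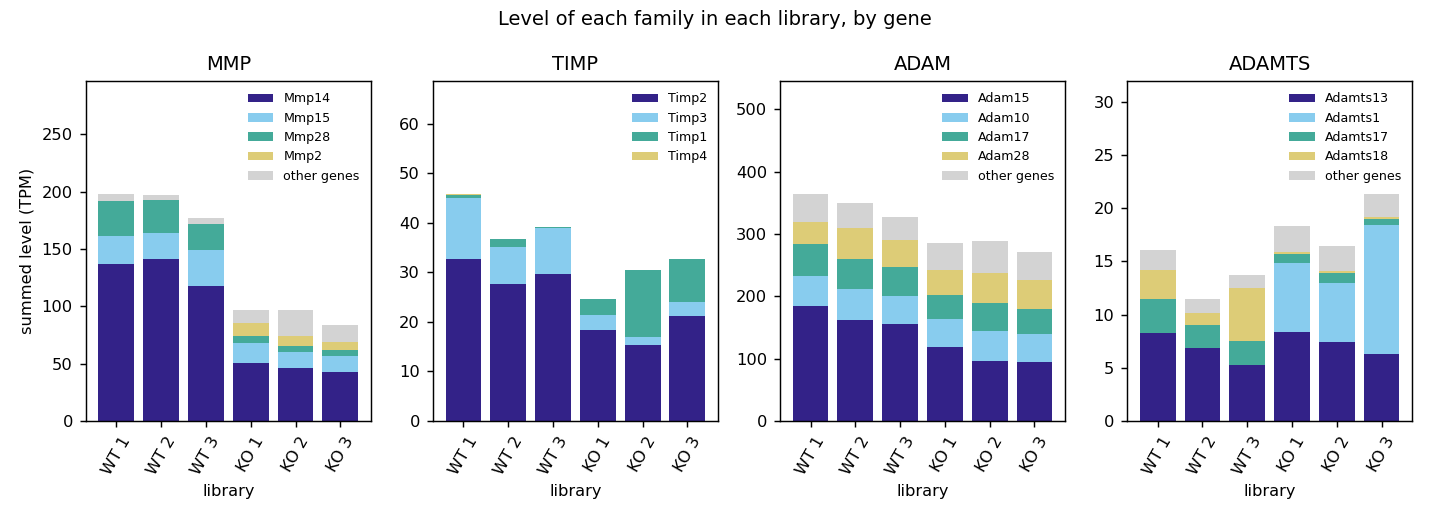
Summed level of each family in each library, in TPM, with the 4 genes of highest mean level in colour and the rest in grey; each panel has its own axis, starting at 0. The summed MMP level is lower in every KO library than in every WT library, at a mean of 92.3 TPM against 190.6 TPM, and Adamts1 has reads in the KO libraries only.

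The summed MMP level was 190.6 ± 11.8 TPM (SD, n = 3) in WT and 92.3 ± 7.45 TPM (n = 3) in KO, or 48.4% of WT. Summed TIMP was 40.5 TPM in WT and 29.3 TPM in KO. The ratio of summed MMP to summed TIMP TPM was 4.32, 5.38 and 4.52 in the WT libraries and 3.94, 3.16 and 2.56 in the KO libraries, with no overlap. More MMP genes were called higher (7) than lower (4), but all of those higher except Mmp24 passed the filter only through KO. The total MMP message was lower in KO. Of the genes called lower, Mmp14, Mmp28 and Mmp15 were the 3 of highest level in WT, and Mmp23 was a gene of few reads. Summed ADAM level was 347.0 TPM in WT and 281.8 TPM in KO, and that of ADAMTS 13.8 TPM and 18.7 TPM. The lower ADAM sum depended on the scale. In CPM, Adam10, Adam17, Adam9 and Adam28 were at 124.4%, 104.5%, 107.9% and 126.4% of WT, and Adam15 at 77.5%. These sums are descriptions of the message and carry no test.

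Most ADAMs of the corneal epithelium changed little. Adam15 (Entrez gene 11490, GRCm38 chr3:89337850-89350028), encoding metargidin, was the most abundant of all 67 genes in both genotypes, at 167.8 TPM in WT and 103.5 TPM in KO. Its counts were 5326, 4769 and 4706 in the WT libraries and 4012, 3266 and 3339 in the KO libraries, without overlap. On the log2 scale the difference was -0.37 (adjusted p = 0.0185 in edgeR, SE 0.111), and the call was lost without WT replicate 1 (-0.32, adjusted p = 0.0739), KO replicate 2 (-0.31, adjusted p = 0.0563) or KO replicate 3 (-0.32, adjusted p = 0.0634). Adam17, the sheddase of TNF and of EGF receptor ligands, had 100, 98.1 and 98.96 CPM in WT and 97.0, 111 and 102.4 CPM in KO. Those groups overlapped, and the log2 fold change was 0.06 (adjusted p = 0.527, SE 0.0838), with a sign that turned under several scalings. Adam10, which cuts Notch, cadherins and other membrane proteins, had WT counts of 2137, 2193 and 2073 and KO counts of 2378, 2566 and 2440. The groups did not overlap in CPM and the log2 fold change was 0.32 (adjusted p = 0.00741, SE 0.0774). On the TPM scale Adam10 was at 47.3 in WT and 46.4 in KO, so that this small difference depended on the scale used.

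Adam9 and Adam28, both membrane-bound proteases, were also abundant. Adam9 had 62.0 ± 3.37 CPM (SD, n = 3) in WT and 66.9 ± 4.59 CPM (n = 3) in KO, and its log2 fold change was 0.11 (adjusted p = 0.324 in edgeR). Adam28 had 53.2, 75.5 and 68.4 CPM in WT and 73.5, 89.4 and 86.2 CPM in KO. One WT library overlapped the KO range, and the log2 fold change of 0.34 (SE 0.140) did not pass, with an adjusted p of 0.0646. It did pass without WT replicate 2 (0.46, adjusted p = 0.0295) or KO replicate 1 (0.42, adjusted p = 0.0417). In order of mean TPM, the WT level ran Adam15, Mmp14, Adam17, Adam10, Adam28, Adam9, Timp2, Mmp28 and Mmp15. Adam15 and Mmp14 were each separated from the next gene, whereas each neighbouring pair from Adam17 down to Mmp15 overlapped between libraries. In KO the order was Adam15, Mmp14, Adam10, Adam28, Adam17, Adam9, Timp2 and Mmp15, with Mmp14 overlapping Adam10.

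Adam8 (Entrez gene 11501) was the tested ADAM with the largest change. Its product is a membrane protease first known from granulocytes, macrophages and other leukocytes. Counts were 21, 43 and 24 in the WT libraries and 468, 574 and 462 in the KO libraries. All KO libraries were alike and more than 10 times the level of every WT library. The normalized count was 1.37 ± 0.556 CPM (SD, n = 3) in WT and 25.2 ± 3.15 CPM (n = 3) in KO, a log2 fold change of 4.20 (adjusted p = 3.92e-06 in edgeR, SE 0.245). Adam19, encoding meltrin beta, a sheddase of neuregulin, had WT counts of 5.43, 1.76 and 3.01 and KO counts of 33.8, 19.1 and 35.7. Its groups were apart at low counts, with a log2 fold change of 3.22 (adjusted p = 0.000385, SE 0.451). Adam22, a catalytically inactive ADAM known from the nervous system, had WT counts of 20, 17 and 25 and KO counts of 9, 8 and 11. The log2 fold change was -1.03 (adjusted p = 0.0229), and leaving out WT replicate 1, WT replicate 3, KO replicate 1 or KO replicate 2 gave adjusted p-values between 0.0590 and 0.0960. Adam1a and Adam4, known from the testis, did not pass, with log2 fold changes of -0.32 (adjusted p = 0.170) and -0.26 (adjusted p = 0.487). Untested Adam12 had WT counts of 4, 0 and 3 and KO counts of 7, 38 and 12.

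Of the 7 proteoglycan-cutting ADAMTS genes, Adamts1 and Adamts15 were tested, and both passed the filter only through KO. Adamts1 (Entrez gene 11504, GRCm38 chr16:85793827-85803113), which cleaves versican and aggrecan, had 0 counts in all 3 WT libraries and 359, 308 and 698 in KO. KO replicate 3 stood above the other two, and all were far above the floor. Set against 3 counts per library, the level was at least 163-fold higher in KO (adjusted p = 5.10e-05 in edgeR), and the fitted log2 fold change is not given because it depends on the prior count. Adamts15, a related aggrecanase, had WT counts of 5.42, 1.01 and 0 and KO counts of 66, 77.1 and 32. The change on the log2 scale was 4.89 (adjusted p = 0.000389, SE 0.687), and 6.64 (adjusted p = 0.000657) without WT replicate 1, which held most of the WT reads. The other proteoglycanases, Adamts4, Adamts5, Adamts8, Adamts9 and Adamts20, never exceeded 6 counts and were not tested. On the TPM scale Adamts1 made up 35.2%, 33.7% and 57.0% of the summed ADAMTS level in the KO libraries, and Adamts13 made up 45.5%, 45.3% and 29.5%. Adamts1 was thus ahead of Adamts13 only in KO replicate 3.

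Adamts18 and Adamts17, whose human counterparts are mutated in inherited disorders of the eye, were lower in KO. Adamts18 had WT counts of 143, 64 and 269 and KO counts of 13, 14 and 12. The WT libraries differed widely among themselves, but the lowest was still well above KO. It came to a log2 fold change of -3.49 (adjusted p = 0.000646 in edgeR, SE 0.539), and -2.84 (adjusted p = 0.000938) without WT replicate 3. Adamts17 had WT counts of 183, 121 and 137 and KO counts of 59.1, 63.7 and 38.3, without overlap, and a log2 fold change of -1.34 (adjusted p = 0.00176, SE 0.249). Adamts13, which cuts von Willebrand factor, had WT counts of 273, 230 and 181 and KO counts of 327, 292 and 254. On the CPM scale the groups were only just apart. Its log2 fold change of 0.46 (SE 0.168) had an adjusted p of 0.0395, and leaving out WT replicate 2, WT replicate 3, KO replicate 1 or KO replicate 2 ended the call with adjusted p-values between 0.0676 and 0.122. Adamts10 and the procollagen N-propeptidase gene Adamts2 were not called, at 0.18 (adjusted p = 0.614) and -0.29 (adjusted p = 0.462). Untested Adamts7 had WT counts of 0, 2 and 1 and KO counts of 11, 6 and 18, a ratio of 12.6 (interval 3.97 to 64.0).

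The spread among KO libraries was not the same for all genes that were higher. Of the 13 called higher with a KO mean of at least 20 counts, 9 were highest in KO replicate 2. A further 2 were highest in replicate 1 (Mmp2 and Adamts13) and 2 in replicate 3 (Adam19 and Adamts1). How often replicate 2 was highest among all genes was not counted. For Adam8, Mmp24 and Adam10, 3 of the 9, the highest KO library was only 1.25, 1.13 and 1.07 times the lowest. Mmp13, Mmp10, Timp1, Mmp9 and Mmp12 shared the order replicate 2, 3, 1, with the highest library 6.23, 5.71, 4.22, 2.83 and 1.69 times the lowest. The coefficient of variation in KO was 78.5% for Mmp13 and 72.9% for Mmp10, where genes of similar level had medians of 14.9% and 20.3%. By contrast it was 2.80% for Mmp28 and 12.5% for Adam8. The summed epidermal markers ran in another order in KO, with 22720 CPM in replicate 1, 10150 in replicate 2 and 13500 in replicate 3. The part of such differences between mice in the results for Mmp13, Mmp10 and Timp1 was not tested.

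Several of the genes that were higher in KO are known from leukocytes or stromal cells, so markers of these cells are given beside them. Of the 11 macrophage or myeloid markers, 10 were tested and 8 were called higher in KO, against 31.8% of all genes. Adgre1 had WT counts of 1, 0 and 1 and KO counts of 31, 33 and 42. Adgre1, Ptprc, Csf1r, Lyz2, C1qb and C1qc had too few WT counts and passed the filter only through KO. Of all genes that passed in that way 89.5% were higher, so their direction came with the filter. C1qb fell short only in WT replicate 2, with 10 counts. C1qa and Mpeg1, also called higher, had enough counts in both genotypes. Itgam was lower and Cd68 was not called. As both are abundant, the summed level of the list was between 268.9 and 340.1 CPM in WT and between 222.3 and 305.2 in KO, while without them, a choice made after the values were seen, it was between 3.12 and 4.88 CPM and between 52.7 and 66.3 CPM. The 7 neutrophil markers of the table summed to between 32.7 and 58.3 CPM in WT and between 90.5 and 172.9 in KO, with Elane, Ngp and Retnlg at 0 in WT and Elane and Ngp at no more than 1 count in KO. Ltf, which is also made by secretory epithelia, carried this sum, and without it, also a choice made afterwards, the sums overlapped at 6.47 to 14.3 CPM in WT and 8.15 to 11.49 CPM in KO. Csf3r, Cxcr2 and Ltf were called higher and Ly6g lower (log2 fold change -1.80, adjusted p = 0.0291 in edgeR). The 10 fibroblast or keratocyte markers summed to between 13.4 and 17.0 CPM in WT, where Lum was at 0, and between 19.9 and 32.9 CPM in KO. Of the 6 tested, 5 were called higher, all but Vim passing the filter only through KO, and Pdgfra was called lower. Without Pdgfra, again chosen afterwards, the sums were 0.779 to 3.30 CPM and 18.5 to 31.8 CPM. The 4 endothelial markers summed to between 0.137 and 0.372 CPM in WT and between 1.22 and 1.51 CPM in KO, with Kdr at 0 in WT. Many of these markers were thus higher in the same genotype as Mmp2, Mmp9, Mmp12, Adam8 and Adamts1, though the whole myeloid sum was not, and their part in those results was not tested. In KO replicates 1 to 3, Mmp2 was at 19.8, 14.8 and 12.9 CPM. The myeloid sum without Itgam and Cd68 was 52.7, 55.4 and 66.3 CPM, and the fibroblast sum without Pdgfra was 28.6, 18.5 and 31.8 CPM. How these values relate was not tested.

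Genes listed as activators, inhibitors or regulators of these proteases were called about as often as all genes. Those higher in KO included several of the plasminogen system. Of 40 such genes in the table, 35 were tested, and 14 were higher, 7 lower and 14 not called, so 21 of 35 were called, close to the 62.0% of all genes tested. The group of proenzyme activation held both activators and inhibitors of the plasminogen system, Serpine2 and Serpinb2 included. Of its 11 tested genes, 7 were higher and none lower, where 31.8% of all genes were higher and 30.2% lower. Plau, encoding urokinase, which makes plasmin, had WT counts of 347, 387 and 389 and KO counts of 713, 857 and 698. Its groups were tight and apart, with a log2 fold change of 1.12 (adjusted p = 8.37e-05 in edgeR). The urokinase receptor gene Plaur rose by 4.07 on the log2 scale (adjusted p = 5.99e-05), and the convertase gene Pcsk6 by 1.40 (adjusted p = 0.000775). Inhibitors counted in this group rose as well, with log2 fold changes of 6.51 for Serpine2 (adjusted p = 2.11e-06) and 7.49 for Serpinb2 (adjusted p = 2.07e-06). WT counts were 7.01, 16 and 17 for Plaur, 1, 7 and 6 for Serpine2 and 9, 16 and 16 for Serpinb2. These genes therefore passed the filter only through their KO counts, where 89.5% of all genes were called higher. Their direction is thus no finding on its own.

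The group of inhibitors and genes of clearance also held inhibitors of other proteases, such as Slpi and Cst3. Of its 6 tested genes, 4 were higher and none lower, against the same 31.8% and 30.2% of all genes. Reck and A2m, of the same group, had too few counts for the test. Slpi, a secreted inhibitor of neutrophil elastase, had WT counts of 28, 21 and 21 and KO counts of 12419, 9580 and 8849, a log2 fold change of 8.89 (adjusted p = 1.14e-07 in edgeR). Cst3, the gene for cystatin C, and Thbs2, which encodes a matrix protein that aids the uptake of MMP2, had log2 fold changes of 2.33 (adjusted p = 4.62e-06) and 3.30 (adjusted p = 9.31e-05). Spp1, encoding osteopontin, had a log2 fold change of 5.95 (adjusted p = 0.000546), and 5.01 (adjusted p = 0.000359) without KO replicate 2. Adamtsl3, an ADAMTS-like gene without a protease domain, had one of 4.53 (adjusted p = 0.000344), and 5.36 (adjusted p = 0.00147) without WT replicate 1. Adamtsl4, a matrix gene of the same family, was lower, at -1.13 (adjusted p = 0.00371). WT counts were 6, 3 and 3 for Thbs2, 1, 2 and 1 for Spp1 and 2, 0 and 1 for Adamtsl3. The direction of these 3 genes thus came with the filter, which they passed only through KO.

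Of 8 tested regulators of the sheddases ADAM10 and ADAM17, 5 were lower, none was higher and 3 were not called. The share called, 62.5%, was close to the 62.0% of all genes, of which 30.2% were lower. Tspan15, a tetraspanin that binds ADAM10 and directs it to substrates, had WT counts of 969, 763 and 997 and KO counts of 138, 130 and 183. All KO libraries lay far below WT, and the log2 fold change was -2.49 (adjusted p = 7.88e-06 in edgeR, SE 0.167). Tspan33, another partner of ADAM10, had WT counts of 250, 314 and 349 and KO counts of 107, 94 and 164, with a log2 fold change of -1.22 (adjusted p = 0.00180). Rhbdf1, the gene for iRhom1, which brings ADAM17 to the cell surface, changed by -0.75 (adjusted p = 0.000816). The levels of Adam10 and Adam17 themselves differed by the small amounts given above.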

How the data were processed

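RNA was measured in 6 bulk libraries, 3 per genotype, grouped by title and genotype label. Per the methods of the study, libraries depleted of ribosomal RNA gave single-end reads of 50 bases, which were filtered with SOAPnuke, aligned with Bowtie2 2.2.5 and counted with RSEM 1.2.12 (the labels name an Illumina kit, the methods a BGI instrument). The authors deposited RSEM estimated counts, FPKM and TPM per gene and library. RSEM divides reads that fit several genes, and between 34.1% and 36.1% of nonzero counts were not whole, as in 26 of the 67 genes here. Deposited FPKM values served as an alternative and deposited TPM values for levels. The authors' own fold changes, adjusted p-values and group means were not used. The submitters' notes name mm9, but the coordinates are those of GRCm38: 67 of 67 genes overlapped their RefSeq locus in GRCm38.p6. Strand use in counting is not given in the sources used here, so overlapping genes (among those tested Timp1, Timp2, Timp3, Mmp23, Mmp24, Mmp28, Adam4 and Adam17) may share reads.

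Estimated counts were rounded and fitted with edgeR 4.0.16 in R 4.3.3 (TMM, filterByExpr, glmQLFit, glmQLFTest, genotype only), with Benjamini-Hochberg adjustment over 13305 genes. A floor of 3 counts equals between 0.137 and 0.152 CPM. Ratios of summed counts carry exact binomial 95% intervals. Alternatives were DESeq2 1.42.0, limma 3.58.1 on log2(FPKM + 1) and log2(FPKM + 0.1), other scalings and filters, robust dispersion, a length correction, the replicate number as a block and leaving out each library. On simulated counts of 13305 genes for KO against WT, edgeR found 76% of 2-fold changes and 94% of 4-fold changes, and called 10 unchanged genes. Few genes were changed in the simulation, 100 of them by 2-fold, whereas 62.0% of genes were called in the real libraries. These rates may thus not hold for the real libraries. Tables and plots used Python 3.11.15, pandas 2.3.3, numpy 2.4.6, scipy 1.17.1 and matplotlib 3.10.9. Promoter windows, from RefSeq, were found for 43 of the 67 genes. Protein motifs were not analysed here.

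The genes and the lists of related genes and markers were chosen with earlier results of these data known. Every tested gene of the families is named with its change, and library values are given for those called with a mean of at least 20 counts in the higher group and for the 5 of highest mean TPM in each family. Related genes are named if at the study threshold, or if among the 3 largest changes in each direction, apart from a gene not reported here. Untested genes with library values, Mmp11, and Rhbdf1 were chosen after their values were seen.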

Additional observations from a re-analysis of the deposited data

How the results depend on the processing

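Of the 24 called protease and inhibitor genes, 17 kept call and direction in all 16 alternatives that could be fitted for them, and 7 lost the call in at least 1 (Adam10, Adam15, Adam22, Adamts13, Mmp15, Mmp23 and Timp2). With a mean count of at least 50, which tests fewer genes, 7 were higher and 6 lower, and 4 were higher at the study threshold, where limma on log2(FPKM + 1) gave 3. Without any filter 21 were higher, and with DESeq2 19. Leaving out 1 library at a time gave between 5 and 10 lower, and at the study threshold between 3 and 6 higher and between 2 and 4 lower. Of the related genes, 11 were lower after the length correction. At the study threshold 5 of them were higher with limma on log2(FPKM + 1), and between 7 and 10 when 1 library was left out. At that threshold 2 were lower with total counts only, 2 with limma on either FPKM scale, 3 with DESeq2, 4 after the length correction and between 1 and 2 with 1 library left out. The length correction lowered the median log2 fold change of all genes by 0.17. Reversed signs were seen, among the genes named, for Adam17 (-0.029 with total counts only, -0.036 and -0.037 with limma on log2(FPKM + 1) and log2(FPKM + 0.1), and -0.006 after the length correction) and for Adamts10 (-0.016 to 0.36 with 1 library left out), neither of them called. The cause of these changes was not tested. Replicate numbers occur in both genotypes but the animals were different, and the deviations of same-numbered libraries correlated at 0.0345, -0.00998 and 0.0606, so the numbers do not pair them. With the replicate number as a block, Mmp15 (-0.46, adjusted p = 0.0578) and Mmp23 (-1.11, adjusted p = 0.0531) were no longer called and Adam28 (0.35, adjusted p = 0.0147) was. Mmp9, Mmp10 and Adamts15 had few reads in WT, which limits the precision of their fold changes.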
